A study of Mus musculus with 11 samples.

Results

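Paneth cells are secretory cells at the base of small-intestinal crypts, and 7 genes for their secreted products were followed here through organoid culture. The genes were chosen by name from a list of Paneth cell antimicrobial, protease and lipase genes: Lyz1, Defa24, Ang4, Itln1, Mmp7, Pnliprp2 and Clps. All 7 were found among the 37310 gene identifiers of the deposited count tables, and all 7 were among the 14172 genes with enough reads to be tested. The 11 bulk RNA libraries came from organoids, which are self-organising epithelial cultures in a basement membrane gel, grown from small-intestinal epithelium of mice named mouse_283 and mouse_285. Both mice carried the Lgr5-EGFP-IRES-creERT2 allele, a knock-in that labels intestinal stem cells and carries an inducible recombinase. The labels name no inducing agent. The labels name mice of 4 and 24 months without tying either age to an animal, so ages were not compared. Early libraries were from passages 2, 3 and 4 of mouse_283 and passages 2 and 4 of mouse_285 (n = 5), and late libraries from passages 11, 12 and 13 of both (n = 6), with passaging every 7 days. Nothing in the labels says that libraries of an animal came from separately kept cultures, so p-values measure the spread between these libraries only, with 2 animals behind them.

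Paneth cells pack their products into dense apical granules and release them into the crypt lumen, where they limit bacteria close to the stem cells. Lysozyme cuts bacterial cell walls, alpha-defensins permeabilise bacterial membranes, angiogenin 4 is a bactericidal ribonuclease and intelectin 1 is a lectin for microbial sugars. In the mouse the metalloprotease matrilysin, from Mmp7, cleaves pro-defensins into their active form. Paneth cells form under Wnt signalling and give Wnt3, Egf and Notch ligands back to neighbouring stem cells.

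Each library held 15114132 to 28949911 reads counted in genes. CPM below is the number of reads of a gene scaled to a fixed library total. A limit of 3 reads was 0.104 to 0.198 CPM and covers counting error only. Levels are CPM after TMM scaling, and all adjusted p-values are Benjamini-Hochberg values over all tested genes from edgeR's quasi-likelihood test, two-sided, with a threshold of 0.05. Passages 3 and 4 of mouse_283 stood apart by base composition. Per 10 points of GC content of a gene, the log2 level there was higher by 0.974 (passage 3) and 0.778 (passage 4), whereas the other 9 libraries had slopes from -0.407 to 0.199. The members' transcripts held 46.4% (Ang4) to 54.2% (Clps) GC, between percentiles 30.3 and 72.2 of the tested genes. Results are therefore also given without those 2 libraries. No batch is named for culture or sequencing, and its part cannot be told apart from that of the stage. In bulk RNA, fewer Paneth cells and less RNA per Paneth cell cannot be told apart either.

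Per kilobase of transcript the defensin and the lectin were the most abundant products. Over the 11 libraries Defa24 stood at 727 ± 357 CPM per kb (SD) and Itln1 at 705 ± 297 CPM per kb (SD). Their order changed between libraries. Itln1 was above Defa24 in every early library and in passages 12 and 13 of mouse_283. Defa24 was above Itln1 in passage 11 of mouse_283 and in every late library of mouse_285. Lyz1 followed at 234 ± 92.0 CPM per kb (SD). Clps stood at 62.5 ± 27.8, Ang4 at 51.2 ± 17.2 and Pnliprp2 at 40.1 ± 16.6 CPM per kb (SD), and each of these overlapped its neighbour in the order. Mmp7 was lowest at 13.7 ± 8.73 CPM per kb (SD). The lengths were those of the longest annotated transcript and not those of the annotation the authors counted on.

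None of the 7 genes passed the test between late and early passages when all libraries were used, and for none were the stages without overlap. The background was 3.05% of tested genes called (432 of 14172) and 5.72% without overlap, and 1 member, Pnliprp2, had an unadjusted p under 0.05, as did 23.6% of tested genes. Fold changes were positive for Lyz1, Defa24 and Clps and negative for Mmp7, Pnliprp2, Itln1 and Ang4. The median over the 7 was -0.14 on the log2 scale, beside -0.02 over all tested genes. DESeq2 also called none of the 7, beside 3.49% of tested genes called higher and 5.98% called lower. Without passages 3 and 4 of mouse_283, 3 of the 7 passed, Lyz1, Defa24 and Clps, all higher late. With all 11 libraries and the GC and length correction 0 of the 7 passed, beside 400 of 13709 genes called higher and 410 called lower. The log2 change was then 0.59 for Lyz1 (adjusted p = 0.194), 0.49 for Defa24 (adjusted p = 0.351) and 0.67 for Clps (adjusted p = 0.146). With the 9 libraries the background of genes called higher late was 1.37% and of genes called lower late 3.4%.

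**Figure D1:**
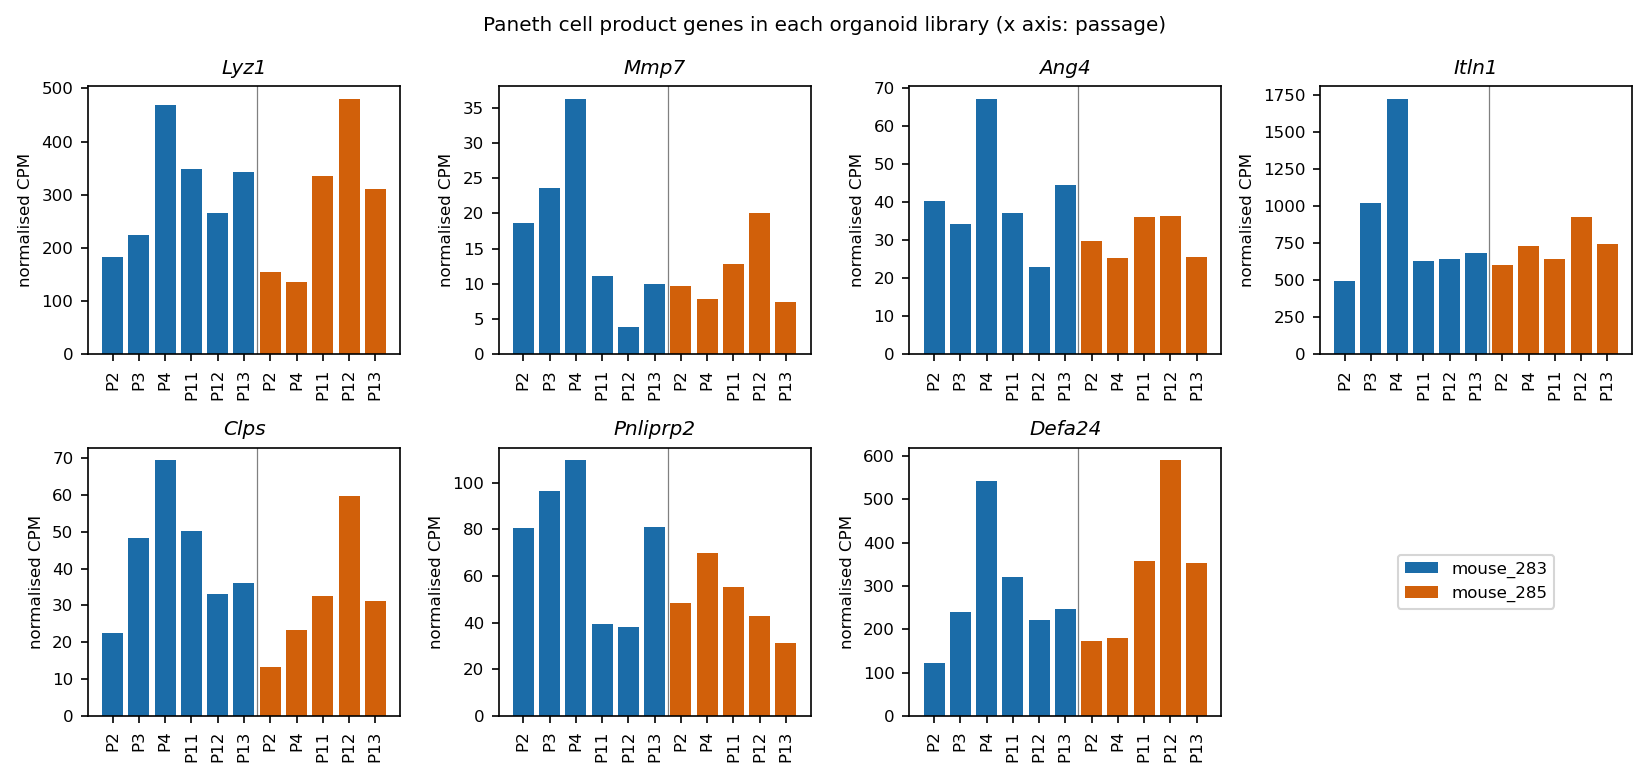
Normalised CPM of the 7 genes (y axis, starting at 0) in each of the 11 libraries (x axis, passage), with mouse_283 in blue and mouse_285 in orange, 1 bar per library. Passage 4 of mouse_283 is the highest bar for Mmp7, Ang4, Itln1, Clps and Pnliprp2, and in mouse_285 the 3 late bars of Lyz1, Clps and Defa24 are above both early bars.

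Lyz1 (ENSMUSG00000069515.5), the lysozyme gene of Paneth cells, was measured at 183, 225 and 469 CPM at passages 2, 3 and 4 of mouse_283 and at 155 and 135 CPM at passages 2 and 4 of mouse_285. In late libraries it stood at 348, 265 and 342 CPM in mouse_283 and at 336, 481 and 311 CPM in mouse_285. All 6 late libraries were above 4 of the 5 early ones, and passage 4 of mouse_283 lay within the late range. The log2 change was 0.66 (SE 0.31, adjusted p = 0.213), with a 95% interval from -0.04 to 1.37. Without passage 4 of mouse_283 it was 1.00 (adjusted p = 0.0266), and without passages 3 and 4 it was 1.15 (SE 0.18, adjusted p = 0.00322). Passage 4 was the highest early library, so leaving it out raised the change by construction, and these p-values are no independent support. The share of all genes called without passage 4 alone is not given here. The related gene Lyz2, which is the lysozyme of macrophages, was at most 1.22 CPM in any library, and 2.06% of the 100-base windows of the Lyz1 transcript also occur in it.

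Defa24 (ENSMUSG00000064213.5), an alpha-defensin gene, was at 122, 241 and 542 CPM in the early libraries of mouse_283 and at 173 and 180 CPM in those of mouse_285. Late values were 321, 223 and 247 CPM in mouse_283 and 357, 590 and 354 CPM in mouse_285. Passage 4 of mouse_283 and passage 12 of mouse_285 were the 2 highest, and the stages overlapped. The log2 change was 0.44 (SE 0.39, adjusted p = 0.471) with all libraries and 1.23 (SE 0.19, adjusted p = 0.00262) without passages 3 and 4 of mouse_283. Leaving out that passage 4 alone gave 0.91 (adjusted p = 0.0883). It was the highest early library for Defa24 as well, so leaving it out raised the change by construction. None of the 100-base windows of the Defa24 transcript occurs in a transcript of another gene.

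Clps, which encodes the colipase that anchors pancreatic-type lipases to fat droplets (ENSMUSG00000024225.4), was the third gene of this kind. Early values were 22.5, 48.4 and 69.4 CPM in mouse_283 and 13.3 and 23.3 CPM in mouse_285. Late values were 50.1, 33.1 and 36.1 CPM in mouse_283 and 32.4, 59.8 and 31.3 CPM in mouse_285. Its lowest 3 libraries were both early libraries of mouse_285 and passage 2 of mouse_283. The log2 change was 0.36 (SE 0.37, adjusted p = 0.53) with all libraries and 1.04 (SE 0.25, adjusted p = 0.0299) without passages 3 and 4 of mouse_283.

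For these 3 genes every late library was above every early one once those 2 libraries were left out, beside 4.52% of tested genes in that direction. In that set the only early library of mouse_283 is passage 2. Markers of other cell types moved in the same fit, in which 1.37% of tested genes were called higher and 3.4% lower. A positive change was found for 7617 of 14630 tested genes. Of 14 stem cell markers 13 had a positive change and 3 were called higher (Ascl2, Axin2 and Tnfrsf19), while 7 of 16 enterocyte markers and 3 of 8 tuft cell markers were called lower. Their part in the change of the Paneth genes was not tested. In mouse_285, which holds neither of the libraries with the steep GC trend, the late libraries of Lyz1, Defa24 and Clps were above both early ones, as were 18.2% of tested genes. Their log2 changes within that animal were 1.37 (SE 0.39), 1.30 (SE 0.51) and 1.17 (SE 0.48), with adjusted p of 0.53, 0.757 and 0.807. No gene of 14172 (0%) was called within mouse_285, and these 3 of the 7 members had an unadjusted p under 0.05 there, beside 5.38% of tested genes. DESeq2 called 0 of the 7 in that animal.

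**Figure D2:**
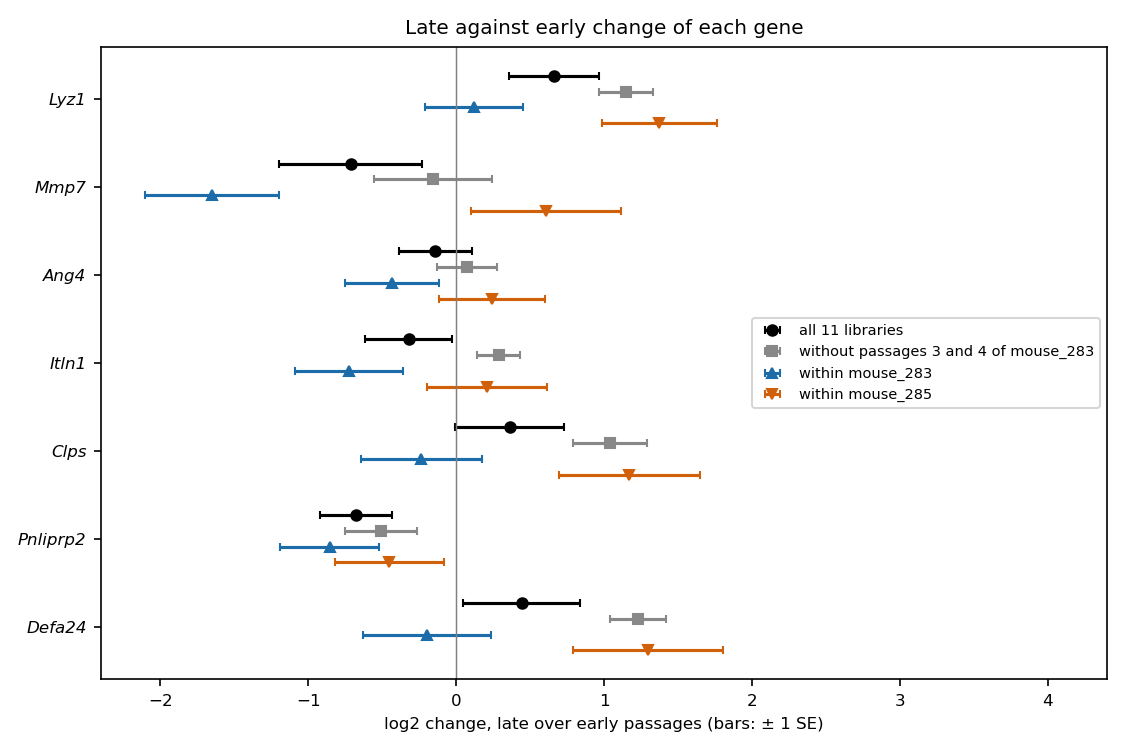
Log2 change of each gene from early to late passages (x axis) with bars of 1 SE, for all 11 libraries (black), without passages 3 and 4 of mouse_283 (grey), within mouse_283 (blue) and within mouse_285 (orange). Lyz1, Clps and Defa24 lie near 1 on the log2 scale in grey and between 1.17 and 1.37 in orange, while Mmp7 has opposite signs in the animals, -1.65 and 0.61.

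Mmp7 (ENSMUSG00000018623.8), the matrilysin gene, varied most, 9.26-fold from its lowest to its highest library. It stood at 18.6, 23.6 and 36.3 CPM in the early libraries of mouse_283 and at 11.1, 3.91 and 10.0 CPM in its late ones. In mouse_285 it was at 9.74 and 7.86 CPM early and at 12.8, 20.1 and 7.38 CPM late. In mouse_283 all late libraries were below all early ones, as were 9.46% of tested genes, and in mouse_285 the stages overlapped. Within mouse_283 the log2 change was -1.65 (SE 0.45, adjusted p = 0.113), where 1.42% of tested genes were called and 2 of the 7 members, Mmp7 and Pnliprp2, had an unadjusted p under 0.05, as did 18.8% of tested genes. DESeq2 called Mmp7 alone of the 7 within that animal (adjusted p = 0.0110), and edgeR did so after the GC and length correction (log2 change -1.72, adjusted p = 0.0439). The shares of all genes called by those fits are not given here, so the calls are not read as particular to Mmp7. Over both animals the change was -0.71 (SE 0.49, adjusted p = 0.353).

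Pnliprp2 (ENSMUSG00000025091.3), a lipase gene related to pancreatic lipase, was the member with a negative fold change in both animals. Early values were 80.6, 96.4 and 110 CPM in mouse_283 and 48.3 and 69.8 CPM in mouse_285. Late values were 39.5, 38.0 and 81.0 CPM in mouse_283 and 55.5, 42.9 and 31.1 CPM in mouse_285. The late values of passage 13 of mouse_283 and passage 11 of mouse_285 stood within the early range. The log2 change was -0.68 (SE 0.24, adjusted p = 0.137), -0.86 (SE 0.33) within mouse_283 and -0.45 (SE 0.37) within mouse_285. It passed the test in 1 alternative, without passage 2 of mouse_283 (log2 change -0.71, adjusted p = 0.0413), a fit that called 4872 genes.

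Ang4 (ENSMUSG00000060615.5), the angiogenin 4 gene, and Itln1 (ENSMUSG00000038209.6), the intelectin gene, had overlapping stages in both animals. Ang4 was at 40.1, 34.2 and 67.1 CPM early and 37.1, 22.9 and 44.6 CPM late in mouse_283, and at 29.8 and 25.3 CPM early and 36.0, 36.3 and 25.6 CPM late in mouse_285. Its log2 change was -0.14 (SE 0.25, adjusted p = 0.725), with a 95% interval from -0.71 to 0.43. Itln1 was at 494, 1020 and 1722 CPM early and 629, 646 and 683 CPM late in mouse_283. In mouse_285 it was at 606 and 729 CPM early and 644, 927 and 743 CPM late. The 2 highest Itln1 libraries were passages 4 and 3 of mouse_283, those with the steep GC trend. Its log2 change was -0.32 (SE 0.29, adjusted p = 0.486) with them and 0.29 (adjusted p = 0.288) without them, and the sign of Ang4 turned likewise, to 0.07 (adjusted p = 0.88).

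Passage 4 of mouse_283 was the highest of the 11 libraries for 5 members, Mmp7, Ang4, Itln1, Clps and Pnliprp2, beside 9.09% of tested genes. For Lyz1 and Defa24 it was second to passage 12 of mouse_285. The 7 genes summed to 3016 CPM there, against 962 to 1689 CPM in the other early libraries and 1232 to 2157 CPM in the late ones. Stem cell markers, a list of 14, summed to 3229 CPM in the same library, against 1310 to 2143 CPM in the other early libraries and 1690 to 3741 CPM late. The part of stem cell content or base composition in the Paneth levels of that library was not tested.

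No difference in the change with stage between the animals passed the test of the interaction, in which edgeR called 0 of 14172 genes (0%). All 7 members had a positive term, meaning a change more upward in mouse_285, as did 50.1% of tested genes. The terms were 2.26 (SE 0.69) for Mmp7, 1.49 (SE 0.66) for Defa24, 1.40 (SE 0.62) for Clps and 1.25 (SE 0.50) for Lyz1, each with adjusted p = 0.99, and these 4 had an unadjusted p under 0.05, beside 2.13% of tested genes. DESeq2 called 0 of the 7. Between the animals, mouse_285 against mouse_283 with stage in the model, 0 of 7 members were called beside 0.0776% of tested genes, and 0 had an unadjusted p under 0.05. The largest difference was -0.55 for Clps (SE 0.37, adjusted p = 0.891). A slope with passage number within stages was called for 0 of 7 members and 0 of 14172 genes (0%) by edgeR, with 0 members at an unadjusted p under 0.05. DESeq2 called 0 of the 7 in both of these comparisons as well.

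The proportions among the products are given next, as a description without a test. Relative to Lyz1 in the same library, a measure that no scaling between libraries affects and that was chosen after the values were seen, Mmp7 reads were 10.1%, 10.5% and 7.74% of Lyz1 reads in the early libraries of mouse_283 and 6.30% and 5.81% in those of mouse_285. Late, they were 3.19%, 1.48% and 2.93% in mouse_283 and 3.80%, 4.18% and 2.37% in mouse_285. All 6 late values were below all 5 early values. Ang4 went from between 14.3% and 21.9% of Lyz1 reads (median 18.7%) to between 7.56% and 13.0% (median 9.66%). Itln1 went from between 269% and 539% (median 391%) to between 181% and 244% (median 196%). For these 3 of 6 genes the stages did not overlap, beside 5.08% of 14171 tested genes that were lower late against Lyz1 in the same sense. Lyz1 is the denominator of each, and its mean was 233 CPM in early libraries (SD 136, n = 5) and 347 CPM in late ones (SD 72.0, n = 6).

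**Figure D3:**
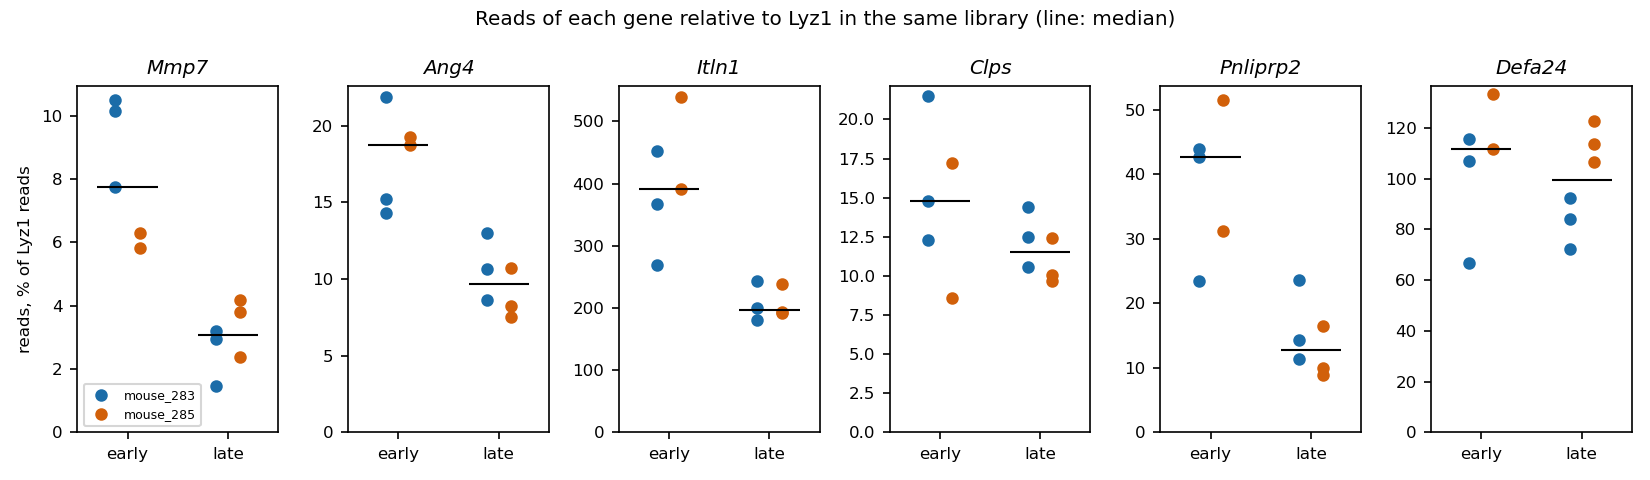
Reads of each of 6 genes as a percentage of Lyz1 reads in the same library (y axis, from 0) at early and late passages, 1 point per library, blue for mouse_283 and orange for mouse_285, with the group median as a line. Mmp7, Ang4 and Itln1 do not overlap between stages, while Clps, Pnliprp2 and Defa24 do.

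For the other 3 genes the stages overlapped. Defa24 was at 66.6% to 133% of Lyz1 reads early (median 112%) and 72.1% to 123% late (median 99.3%). Clps was at 8.57% to 21.5% early and 9.65% to 14.4% late. Pnliprp2 went from a median of 42.8% to 12.8%, and its ranges met at 23.4% early and 23.7% late. The library of passage 4 of mouse_283 had Lyz1 inside the late range, and Mmp7, Ang4 and Itln1 were at their highest there. Its proportions of these 3 genes, 7.74%, 14.3% and 368% of Lyz1 reads, are among the early values already counted above. The part of the Lyz1 level in the proportions was not tested.

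Across the 11 libraries Pearson's r of log2 CPM was 0.89 for Lyz1 and Defa24, 0.83 for Lyz1 and Clps and 0.79 for Clps and Defa24. Ang4 and Mmp7 had r = 0.82 and Mmp7 and Pnliprp2 r = 0.67, while Pnliprp2 had -0.10 with Lyz1 and -0.15 with Defa24. These last values depended on the libraries and on stage. They were -0.39 and -0.56 without passages 3 and 4 of mouse_283, and 0.44 and 0.35 over all libraries after stage and animal were taken out. Of the 21 pairs 14 had r over 0.5. The points share depth, base composition and stage, and without passages 3 and 4 of mouse_283 the median r fell from 0.54 to 0.29 over 9 libraries. There Lyz1 had 0.88 with Clps and 0.86 with Defa24, Mmp7 had 0.77 with Ang4, and Mmp7 with Itln1 went from 0.62 to 0.01.

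**Figure D4:**
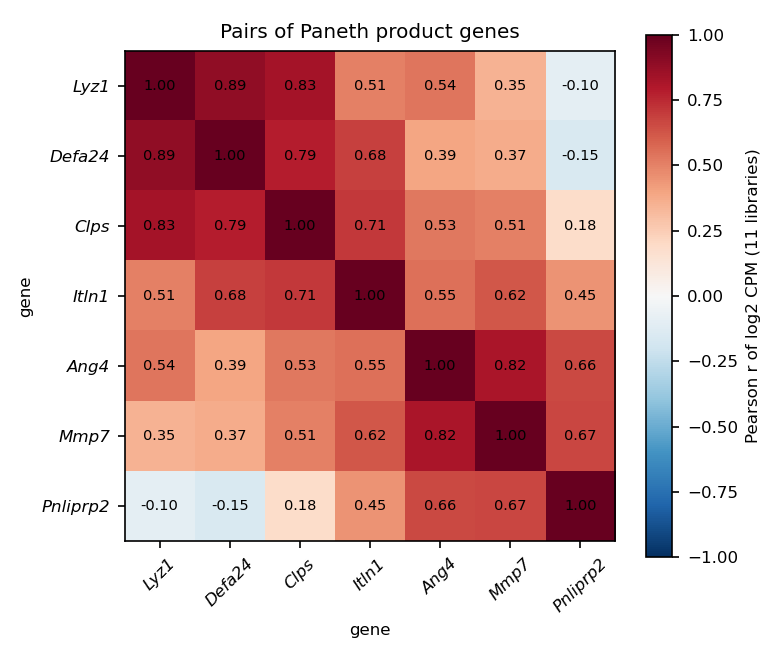
Pearson's r of log2 CPM over 11 libraries for each pair of genes (axes), from -1 in blue to 1 in red. Lyz1, Defa24 and Clps form a block from 0.79 to 0.89, and Pnliprp2 has -0.10 and -0.15 with Lyz1 and Defa24, values that turn positive once stage and animal are taken out.

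RefSeq promoter windows on build GRCm38.p6 were at hand for 5 of the 7 genes, and not for Clps and Defa24. The 150 bases before the start are shown for Mmp7, Ang4 and Itln1, the genes with all late proportions below the early ones, and for Lyz1, the gene they were set against. The Mmp7 window, at the farthest upstream of its starts, is at chr9:7691940-7692089 on the plus strand, Ang4 at chr14:51773591-51773740, Itln1 at chr1:171535295-171535444 and Lyz1 at chr10:117292869-117293018, these 3 on the minus strand, written 5′ to 3′ with searched motifs in capitals.
Mmp7: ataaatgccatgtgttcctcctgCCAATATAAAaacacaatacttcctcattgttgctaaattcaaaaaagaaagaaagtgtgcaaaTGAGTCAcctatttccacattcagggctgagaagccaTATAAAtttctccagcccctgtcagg
Ang4: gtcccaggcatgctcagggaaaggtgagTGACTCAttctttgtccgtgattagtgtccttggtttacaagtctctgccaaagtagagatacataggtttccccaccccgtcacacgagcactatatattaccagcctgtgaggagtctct
Itln1: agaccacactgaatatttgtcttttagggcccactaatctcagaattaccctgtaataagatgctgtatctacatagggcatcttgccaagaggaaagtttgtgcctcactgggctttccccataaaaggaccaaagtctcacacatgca
Lyz1: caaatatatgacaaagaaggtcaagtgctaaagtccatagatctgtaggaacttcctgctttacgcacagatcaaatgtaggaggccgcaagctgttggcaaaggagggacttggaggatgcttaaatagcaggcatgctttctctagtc

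Motifs were searched by their letters on both strands. The TATA box was taken as TATAAA and occurred in 8.08% of the 27025 RefSeq promoters in a window of this length. The AP-1 motif was taken as TGANTCA and occurred in 4.26% of them. The CAAT box, CCAAT, occurred in 25.3%. The TCF motif was taken as CTTTGAT, with 1.82% of promoters, and the E-box as CAGCTG, with 8.20%. The Mmp7 window held an AP-1 motif at -63, TATA boxes at -26 and -123 and a CAAT box at -127 that overlaps the second of these. The Ang4 window held an AP-1 motif at -122. In the Itln1 and Lyz1 windows none of the 5 motifs was found. A match of letters is a description, and no binding was measured.

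Other alpha-defensin genes were also followed. Among 27 symbols of the family, 12 genes were tested, Defa24 included. Over both animals all 12 had a positive fold change, as did 48.6% of tested genes. The median was 1.04 on the log2 scale beside -0.02 over all tested genes. The animals differed in sign. Within mouse_283 11 of the 12 changes were negative (median -0.43), and within mouse_285 all 12 were positive (median 4.34). EdgeR called 0 of the 12 within either animal. An unadjusted p under 0.05 was found for 0 within mouse_283 and 12 within mouse_285, beside 18.8% and 5.38% of tested genes. Defa21, Defa22, Defa28, Defa29, Defa3, Defa34 and Defa5 were at most 0.357 CPM in both early libraries of mouse_285. They passed the filter through libraries where they were higher, so a negative change within mouse_285 could hardly be found for them. The count of 12 and the median of 4.34 are therefore no measure against that background. Between stages over both animals 0 of the 12 passed by edgeR. There 1, Defa30, had an unadjusted p under 0.05, beside 23.6% of tested genes. DESeq2 called 1 of the 12 higher, also Defa30, beside 3.49% of tested genes. Defa30 was at 9.51, 9.76 and 49.5 CPM in the early libraries of mouse_283 and at 7.02 and 10.0 CPM in those of mouse_285. Late it stood at 53.5, 25.5 and 36.7 CPM in mouse_283 and at 61.9, 122 and 54.3 CPM in mouse_285. The early library within the late range was again passage 4 of mouse_283. Its log2 change was 1.76 (SE 0.61, adjusted p = 0.13) with all libraries and 2.74 (SE 0.36, adjusted p = 0.00076) without passages 3 and 4 of mouse_283.

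Without those 2 libraries 9 of 11 tested alpha-defensin genes were called higher late and 0 lower, beside the backgrounds of 1.37% and 3.4% of tested genes. The 9 were Defa24, Defa17, Defa30, Defa37, Defa22, Defa21, Defa29, Defa5 and Defa3. Some of these were near the floor. In the early libraries that remained Defa3 had no read, and Defa5 and Defa29 were at most 0.113 and 0.0566 CPM, under the limit of 3 reads. Defa21 and Defa22 were at most 0.488 and 0.306 CPM there, and Defa34, which was not called, at most 0.244 CPM. Defa3, Defa5, Defa29, Defa21, Defa22 and Defa34 passed the filter through late libraries, so only a call of higher late was possible for them. The count of genes called is therefore no measure against those backgrounds. After the GC and length correction of all libraries, 0 of 12 passed, with a median of 0.76. That fit called 400 of 13709 genes higher and 410 lower, with a median of 0.05. Several of these genes are near-identical copies whose reads cannot be assigned with certainty. All 100-base windows of Defa37 and 90.6% of those of Defa17 occur in another gene, against 0.334% for Defa30 and none for Defa24.

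**Figure D5:**
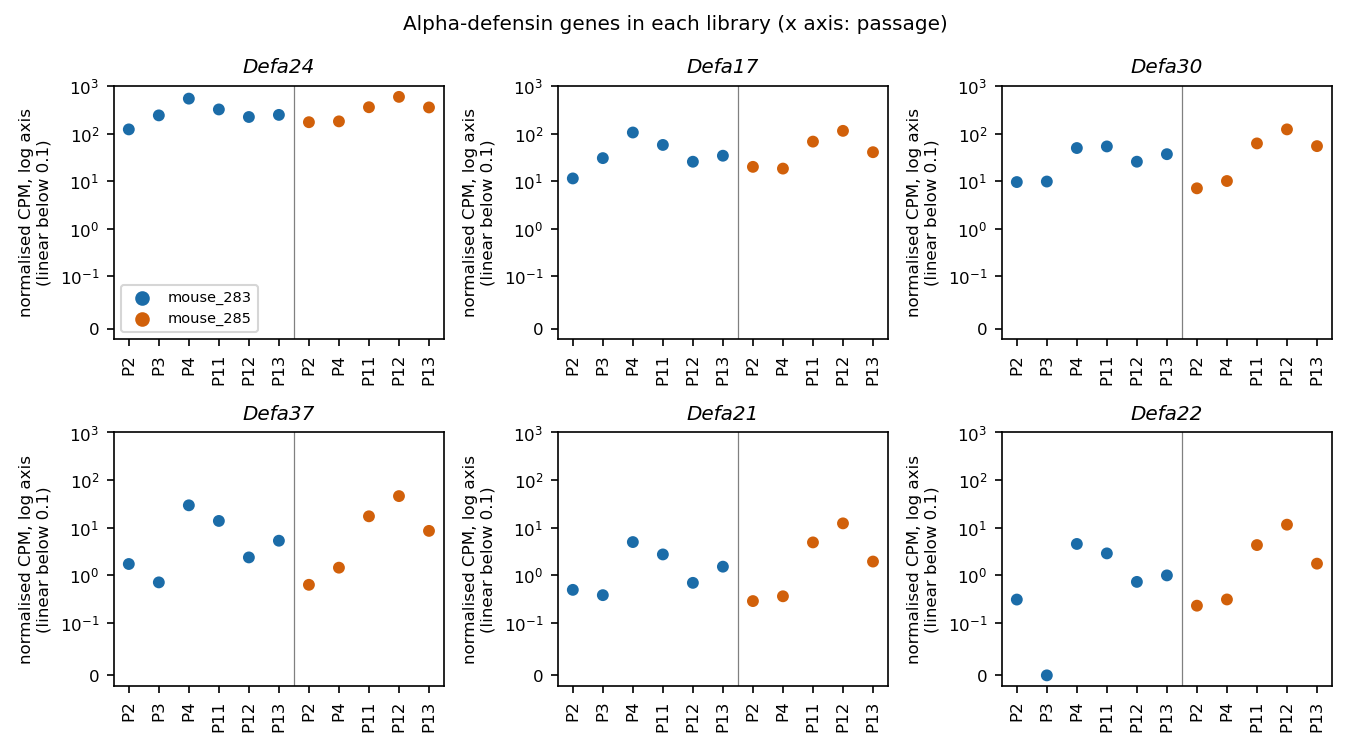
Normalised CPM of 6 alpha-defensin genes (y axis, log scale, linear below 0.1) in the 11 libraries (x axis, passage), blue for mouse_283 and orange for mouse_285. Passage 4 of mouse_283 and passage 12 of mouse_285 are high in each panel, and passages 2 and 3 of mouse_283 and both early libraries of mouse_285 are low for Defa30, Defa37, Defa21 and Defa22.

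Of 21 tested genes for other products reported in Paneth cells, 0 rose and 3 fell late, beside 0.706% of tested genes called higher and 2.34% called lower. Their median log2 change was -0.25, beside -0.02 over all tested genes. Guca2b, the uroguanylin gene, was at 99.4 to 198 CPM early and 29.7 to 65.2 CPM late, without overlap (log2 change -1.48, SE 0.24, adjusted p = 0.00835). The antibacterial lectin gene Reg3b fell from a mean of 2.15 to 0.808 CPM (log2 change -1.70, adjusted p = 0.0365). Sftpd, of the surfactant collectin, was at 6.83, 3.99 and 3.90 CPM in the early libraries of mouse_283 and at no more than 0.391 CPM in its late ones. In mouse_285 Sftpd had no read in either early library and was at most 0.0624 CPM late, under the limit of 3 reads, and it was called between stages (adjusted p = 0.0211) and between animals (adjusted p = 0.0409). Sftpd passed the filter through the early libraries of mouse_283, so only a call of lower late, and of lower in mouse_285, was possible for it. The counts of lower genes above and below include it. Pla2g2a, the phospholipase gene of Paneth granules, reached 2.71 CPM in passage 4 of mouse_283 and at most 1.25 CPM in late libraries. Without passages 3 and 4 of mouse_283, 2 of 21 genes were higher, Ang and Ccl9, and 3 lower, Guca2b, Sftpd and Nupr1. Over all tested genes 1.37% were called higher there and 3.4% lower. DESeq2 with all libraries called 1 of 21 higher (Ccl9) and 6 lower, beside 3.49% and 5.98% of tested genes.

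Of 26 regulators of Paneth cell formation and granule release, 0 passed edgeR's test in either direction. Over all tested genes 0.706% were called higher and 2.34% lower. An unadjusted p under 0.05 was found for 4 of the 26, beside 23.6% of tested genes. DESeq2 called 1 lower, Xbp1, beside 5.98% of tested genes. The secretory lineage factor Atoh1 had a log2 change of 0.07 (SE 0.24), with means of 6.74 CPM early (SD 2.11, n = 5) and 7.06 CPM late (SD 1.17, n = 6). Gfi1, which acts downstream of Atoh1, had a log2 change of 0.69 (SE 0.41), Sox9 of 0.13 (SE 0.26) and Spdef of 0.03 (SE 0.22). Xbp1, a factor for the secretory apparatus, was at 305 to 673 CPM early and 256 to 316 CPM late (log2 change -0.63, SE 0.19, adjusted p = 0.0937). With passages 3 and 4 of mouse_283 left out, 1 of the 26 was called higher late, beside 1.37% of tested genes. It was the receptor gene Ephb3, which positions Paneth cells in the crypt (log2 change 0.70, adjusted p = 0.0233).

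Of 5 niche signal genes, 0 passed edgeR's test with all libraries, 0 had an unadjusted p under 0.05, and DESeq2 called 0. Over all tested genes edgeR called 3.05%, and 23.6% had an unadjusted p under 0.05. Wnt3 was at 3.90, 9.06 and 19.6 CPM early and 9.46, 7.14 and 10.5 CPM late in mouse_283. In mouse_285 it was at 3.74 and 6.94 CPM early and 10.6, 11.0 and 9.62 CPM late. The highest was passage 4 of mouse_283 here as well. Without passages 3 and 4 of mouse_283, 2 of the 5 were called higher late, beside 1.37% of tested genes. They were Wnt3 (log2 change 1.06, SE 0.23, adjusted p = 0.0187) and the Notch ligand gene Dll4 (0.65, SE 0.16, adjusted p = 0.0355). Egf stayed under 1 CPM, with means of 0.722 early and 0.750 late.

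Clps and Pnliprp2 are best known from the exocrine pancreas, and acinar genes were therefore listed. Of 30 acinar genes 10 had enough reads to be tested and 9 had no read in any library, among them the trypsinogen gene Prss2, the carboxypeptidase gene Cpa1 and the acinar transcription factor Ptf1a, and Pnlip was at most 0.270 CPM. Of 10 tested, with a median log2 change of -0.97, 0 rose and 2 fell, beside 0.706% of tested genes called higher and 2.34% lower. The 2 were Ctrb1 (chymotrypsinogen) and Sycn (syncollin), with log2 changes of -4.19 and -2.03 (adjusted p = 0.00165 and 0.0191), while Cela1 (log2 change -0.27, adjusted p = 0.395) and Zg16 (-1.03, adjusted p = 0.183) did not pass. DESeq2 called 0 of the 10 higher and 3 lower, beside 3.49% and 5.98% of tested genes. Ctrb1 was at 39.6 to 158 CPM early and 1.66 to 20.2 CPM late, against overlapping ranges for Clps and Pnliprp2. Immune markers, a list of 18, summed to 26.0 to 68.3 CPM early and 29.7 to 56.7 CPM late, with Ptprc at most 0.0326 CPM and Cd8a and Cd4 at 0. Kit held most reads of this list, 8208 over all libraries, beside 1673 for Itgam and 769 for Cd68. The sum thus mostly follows Kit and is no measure of immune cell content. The part of the acinar genes and immune markers in the Paneth values was not tested.

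The genes whose levels were most like those of a member over the 11 libraries were taken from 9948 candidates with a mean of at least 5 CPM. For Lyz1 they were Ascl2 (r = 0.94), a stem cell transcription factor gene, Neurog3 (0.94), of enteroendocrine progenitors, and the Wnt feedback gene Nkd1 (0.93). For Defa24 they were Defa17 (0.98), Dio1 (0.95) and Zdhhc14 (0.94). Clps was closest to Ivd (0.94), Esam (0.93) and Atg16l2 (0.91), and Mmp7 to Aig1 (0.93), Amz2 (0.91) and Reg4 (0.90). Ang4 was closest to Sort1 (0.95), Adora1 (0.91) and Wdr82 (0.90). Itln1 was closest to Med22 (0.98), Foxa3 (0.97) and Cep131 (0.97), and Pnliprp2 to Ighmbp2 (0.90), Tnfaip2 (0.90) and Nbeal2 (0.89). These are descriptions over libraries that share depth and base composition.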

How the data were processed

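RNA from 11 organoid libraries was analysed from tables of read counts per gene. Per the submitters' processing notes, the authors trimmed reads with Trimmomatic and aligned and counted them with STAR on mouse build mm9; versions and the annotation release are not given in the sources used here. The deposited counts were used from the unstranded column, since the first strand column held 50.0% to 50.2% of stranded reads, so overlapping antisense genes cannot be told apart. The 4 summary lines per table (unmapped 4.76% to 10.2%, multimapping 5.92% to 8.78%, no feature 3.77% to 11.7%, ambiguous 3.11% to 4.03% of reads) were left out. The passage in the sample title, which the description repeats, set the stage; in all 11 file names the passage number is higher by 1, so passage numbers may be off by 1, and stages are the same by either. Identifiers were matched to symbols without version (32620 of 37310).

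Genes were filtered with filterByExpr on stage and animal, scaled by TMM and tested with edgeR 4.0.16 (R 4.3.3, limma 3.58.1) in a model of animal and stage, with further models for the interaction, the stage within each animal and the passage number. Each SE was obtained from the fold change and its F statistic, and a prior count of 2 entered log2 CPM. Alternatives were DESeq2 1.42.0, no filter, no animal term, total count scaling, leaving out libraries, and offsets from splines of 5 degrees of freedom on GC content and length (known for 13709 tested genes, GENCODE M21 on GRCm38). The procedure was tested on simulated data. No pair of libraries was a duplicate (smallest chi-square per degree of freedom 15.1). Coordinates are given only for RefSeq promoters. The members, lists and alternatives were chosen with earlier results of these data known; the proportions to Lyz1 and DESeq2 on the other lists were added after the values were seen. All members were named in every library. From each other Paneth list up to 4 genes past the test and fixed examples were named, as were the 3 genes most like each member. The alpha-defensins other than Defa24, and Ephb3, Dll4, Ang, Ccl9, Nupr1, Pnlip, Prss2 and Cpa1, were named after their values were seen.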

Additional observations from a re-analysis of the deposited data

Results flagged for a closer look

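Of 14 groups examined (7 genes at 2 stages), 3 held a library far from the others. The rule flags about 1 in 20 groups by chance where values are normally distributed and groups are independent. It was applied to CPM and not to log2 CPM, and the genes share libraries, with r = 0.89 for Lyz1 and Defa24. That rate is therefore no measure for the 3 groups. Among the 5 early libraries, passage 4 of mouse_283 stood above the rest for Lyz1, at 469 CPM, and for Defa24, at 542 CPM. Among the 6 late libraries, passage 12 of mouse_285 stood above the rest for Defa24, at 590 CPM.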

How the results depend on the processing

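With no replicate block (no animal term), 0 of the 7 genes were called between stages and 0 for passage slope, as with it. The block was the animal, the source the labels name, and replicate numbers given in accession order pair nothing. Counts of called members moved in these cases. Without the filter on low counts, 1 was called between stages, 1 in the interaction, 1 within mouse_283 and 2 within mouse_285. With the filter 0 of 14172 genes were called in the interaction and within mouse_285. The share of all genes called without the filter is not given here, so whether these calls are particular to the members cannot be told. Without passages 3 and 4 of mouse_283, 3 were called between stages, 1 within mouse_283 and 2 within mouse_285, beside 4.76%, 6.37% and 2.17% of tested genes. In that fit mouse_283 has 1 early library, which is assumed to vary like the other groups. Within mouse_283, DESeq2 called 1 and the GC and length correction 1, without the shares of all genes beside them. Leaving out each library in turn gave 0 to 1 called between stages, 0 to 5 in the interaction and 0 to 3 within mouse_283. The highest counts of 5 and 3 came without passage 2 of mouse_283, where 2314 and 7694 of all genes were called.

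Signs turned without passages 3 and 4 of mouse_283 for Ang4 (0.071) and Itln1 (0.29) between stages, for Lyz1 (0.069), Mmp7 (0.12) and Itln1 (0.31) between animals, for Itln1 in the interaction (-0.20), and for Itln1 (0.41), Clps (0.83) and Defa24 (1.12) within mouse_283, where 1 early library remains. The GC and length correction turned Itln1 between animals (0.0072) and Clps within mouse_283 (0.18). Leaving out single libraries gave -0.25 to 0.072 for Ang4 between stages. Between animals it gave -0.61 to 0.10 for Mmp7, -0.29 to 0.072 for Itln1 and -0.14 to 0.42 for Defa24. Within mouse_283 it gave -0.12 to 0.64 for Lyz1, -0.57 to 0.16 for Clps and -0.57 to 0.54 for Defa24. The cause was not tested. Every member had at least 119 reads in each library, and mouse_285 had 2 early libraries.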
